A study of Mus musculus with 4 samples.

Results

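The genes described here encode the glycine receptor subunits Glra1, Glra2, Glra3 and Glrb, the receptor scaffold gephyrin (Gphn) and the chloride cotransporters NKCC1 (Slc12a2) and KCC2 (Slc12a5). They were taken by name, and all 7 were found at a single locus each among the 22558 gene symbols of the study. The study asked what the transcription factor Fezf2 does in the developing mouse retina. It sequenced RNA of whole retinas from Fezf2 knockout mice (KO, labelled Fezf2KO) and from control littermates (labelled wildtype), both on the background given as C57/BL/6J, at postnatal days 7 (P7) and 14 (P14). There was 1 library for each genotype and age, 4 in all. The sources used here give neither the design of the KO allele nor the number of mice behind a library.

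Glycine receptors are chloride channels opened by glycine. Their alpha subunits bind glycine and line the channel, and the beta subunit ties the receptor to gephyrin, which holds it under the synapse. In the retina glycine is released by amacrine cells, among them the AII cell, onto bipolar, ganglion and other amacrine cells, and alpha1 receptors are known at AII synapses on OFF cone bipolar cells. Whether an open chloride channel inhibits a cell depends on its chloride content, which NKCC1 raises by import and KCC2 lowers by export. Many maturing neurons lose NKCC1 and gain KCC2.

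Levels are in FPKM, a unit that divides the fragments of a gene by its transcript length and by the total mapped, and the deposited files give a lower and an upper bound with each. These bounds speak of counting error and not of differences between mice. The distance from middle to bound was, in the median over loci, 13.0% to 15.5% of the value between 1 and 10 FPKM and 6.31% to 7.78% from 10 FPKM on. Libraries were said to differ beyond counting error when their bounds were apart, which is easier to reach at high levels. Differences are on the scale of log2(FPKM + 1), on which low genes move less than their FPKM. In whole retina, fewer cells of a type and less RNA per cell cannot be told apart. Fezf2 itself stood at 7.12% of the control level in the KO retina at P7 and at 3.14% at P14. The amacrine gene Pax6 (86.7 to 106 FPKM) and the Mueller glia gene Rlbp1 (179 to 303 FPKM) were present in all 4 libraries, as the label retina implies.

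The ranking of the 7 genes by level was similar at each age. Slc12a5 was the highest in every library, above 90.5% of the genes at 1 FPKM or more in the control P7 library and above 95.4% of them in the control P14 library. Gphn and Glrb came next, in that order at P7 and in the reverse order at P14. Their bounds overlapped in the KO P7 library and were apart in the other 3 libraries. Glra2 was the highest alpha subunit in every library. Glra1 and Glra3 had overlapping bounds in each of the 4 libraries. At P14 those of Slc12a2 overlapped with the bounds of Glra1 in both genotypes.

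**Figure D1:**
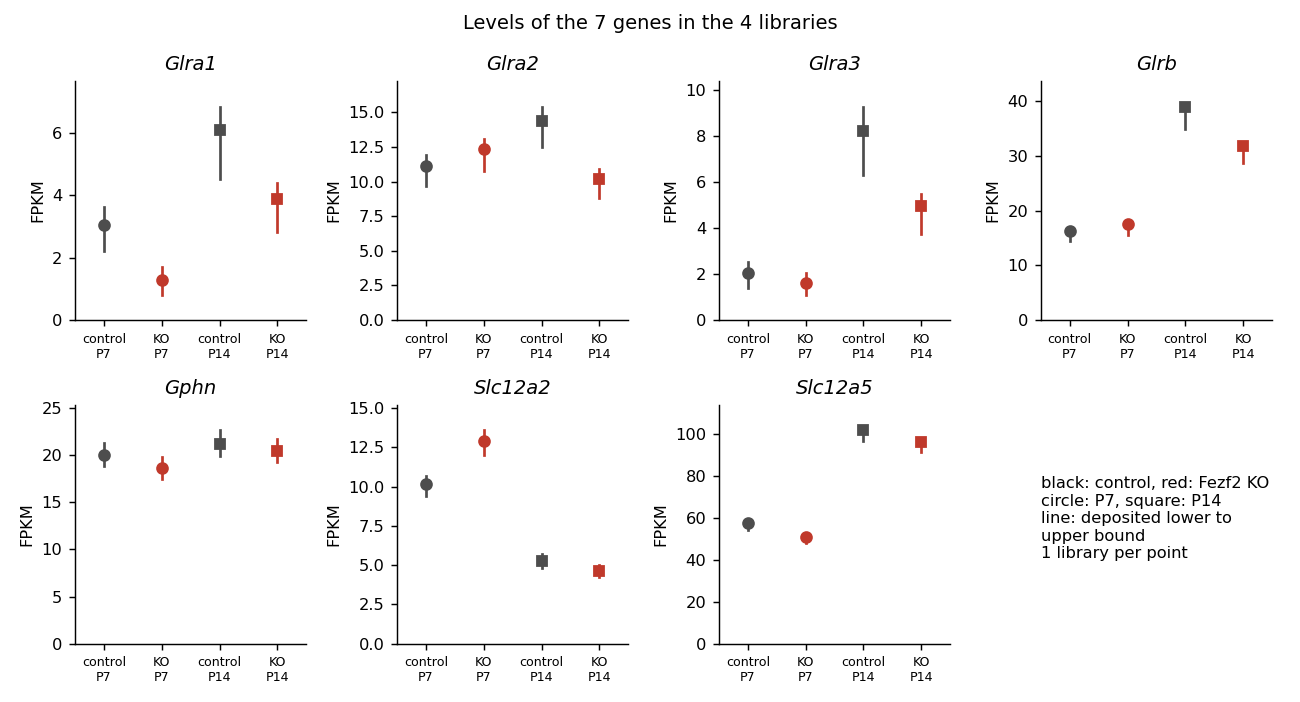
Level in FPKM (vertical axis, from 0) of each gene in the 4 libraries (horizontal axis), with the deposited lower and upper bound as a line; each point is 1 library. Glra1 is lower in the KO retina at both ages (at P7 1.27 FPKM where the control has 3.06, at P14 3.87 where it has 6.08), and Slc12a5 and Slc12a2 run in opposite directions with age.

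At P7 the KO retina differed from the control mainly in Glra1, with smaller differences in the cotransporter genes. Glra1, the alpha subunit of the fast adult receptor, was at 3.06 FPKM in the control retina (bounds 2.20 to 3.61) and 1.27 FPKM in the KO retina (bounds 0.796 to 1.71). This is 41.6% of the control, a log2 difference of -0.84, which ranked 31 from the lowest of 12665 genes that reached 1 FPKM in the control or the KO retina. The other alpha subunits had overlapping bounds. Glra2, the alpha subunit that prevails in immature neurons, was at 11.1 FPKM in the control retina and 12.4 FPKM in the KO retina (bounds 9.67 to 11.9 and 10.8 to 13.1, log2 difference 0.14). Glra3 was at 2.03 and 1.60 FPKM (bounds 1.40 to 2.53 and 1.07 to 2.05, -0.22). The beta subunit gene Glrb was at 16.3 and 17.6 FPKM (bounds 14.5 to 17.0 and 15.6 to 18.3, 0.10). Gphn, which also takes part in the synthesis of the molybdenum cofactor, was at 20.04 and 18.6 FPKM (bounds 18.8 to 21.3 and 17.4 to 19.8, -0.10). Receptor genes other than Glra1 and the scaffold gene thus stood close together in the P7 libraries.

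The cotransporter genes went in opposite directions at P7. Slc12a2, the chloride importer, was at 10.1 FPKM in the control retina (bounds 9.42 to 10.7) and 12.9 FPKM in the KO retina (bounds 12.03 to 13.6), a log2 difference of 0.32. Slc12a5, the chloride exporter, was at 57.4 FPKM in the control retina (bounds 54.5 to 57.6) and 50.7 FPKM in the KO retina (bounds 48.0 to 51.6), a log2 difference of -0.18. The importer was higher and the exporter lower in the KO retina, both beyond counting error. Of the 7 genes, 2 were lower beyond counting error at P7 (Glra1 and Slc12a5) where 6.10% of all genes were, and 1 was higher (Slc12a2) where 7.34% of all genes were. By a difference of 1.5-fold or more, 1 was lower (Glra1) where 0.616% of all genes were, and 0 were higher where 0.379% were. The median log2 difference was -0.10 over the 7 genes and 0.01 over all genes.

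At P14 all 4 receptor subunit genes were lower in the KO retina beyond counting error. Glra1 was at 6.08 FPKM in the control retina (bounds 4.51 to 6.84) and 3.87 FPKM in the KO retina (bounds 2.83 to 4.39), which is 63.7% of the control and a log2 difference of -0.54. Glra3, an alpha subunit found in the retina on amacrine and ganglion cells, was at 8.21 FPKM in the control retina (bounds 6.29 to 9.27) and 4.95 FPKM in the KO retina (bounds 3.73 to 5.48), which is 60.3% and -0.63. Glra2 was at 14.4 FPKM in the control retina (bounds 12.5 to 15.4) and 10.2 FPKM in the KO retina (bounds 8.85 to 10.9), which is 70.8% and -0.46. The 3 alpha subunit genes ranked 155 (Glra1), 112 (Glra3) and 235 (Glra2) from the lowest of 12804 genes. Glrb was at 38.9 FPKM in the control retina (bounds 34.98 to 39.02) and 31.9 FPKM in the KO retina (bounds 28.7 to 31.99), which is 82.0% and -0.28. The summed level of the 3 alpha genes was 28.7 FPKM in the control retina and 19.0 FPKM in the KO retina at P14, and 16.2 and 15.2 FPKM at P7.

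The scaffold and the cotransporters differed less at P14. Gphn was at 21.2 and 20.4 FPKM in the control retina and the KO retina (bounds 19.9 to 22.6 and 19.3 to 21.7, log2 difference -0.05). Slc12a2 was at 5.28 and 4.64 FPKM (bounds 4.79 to 5.74 and 4.23 to 5.03, -0.16). Both pairs of bounds overlapped. Slc12a5 was at 102 FPKM in the control retina (bounds 96.9 to 101.8) and 96.0 FPKM in the KO retina (bounds 91.5 to 95.8), a log2 difference of -0.08, with bounds apart. In these libraries its FPKM lay slightly above its own upper bound, so bounds were compared only with bounds. In all, 5 of the 7 genes were lower beyond counting error where 8.24% of all genes were, and 0 were higher where 7.45% were. By the 1.5-fold rule 1 was lower (Glra3) where 1.02% of all genes were, and 0 were higher where 0.453% were. The median log2 difference was -0.28 over the 7 genes and 0.003 over all genes.

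**Figure D2:**
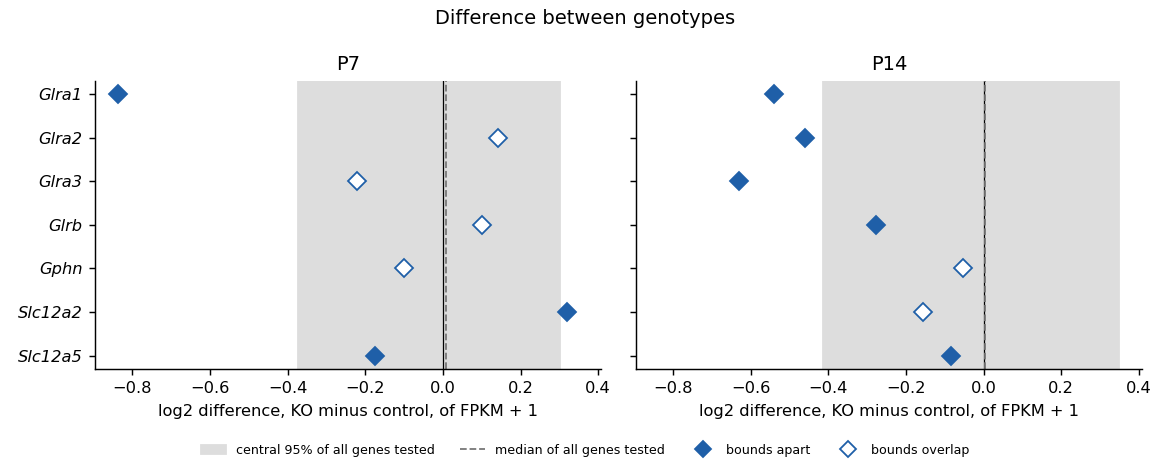
Log2 difference between KO and control in FPKM + 1 (horizontal axis) for each gene at P7 and P14, 1 library per genotype and age. The shaded band holds the central 95% of all genes tested, from -0.37 to 0.30 at P7 and from -0.41 to 0.35 at P14; Glra1 lies below it at both ages, Glra2 and Glra3 at P14 only, and Slc12a2 just above it at P7.

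A limma fit of all 4 libraries with terms for genotype and age takes the genotype difference to be the same at both ages and has 1 residual degree of freedom. In this fit Glra1 was the only one of the 7 genes called lower in the KO retina, with a log2 change of -0.69 ± 0.12 (SE) and an adjusted p of 0.0374 by limma with Benjamini-Hochberg adjustment over 12934 genes. Its KO level was below the control at P7 and at P14. Of all genes 0.240% were called lower and 0.00% higher, and 1182 of the 12934 had an unadjusted p under 0.05 in limma. The call did not hold under other settings, with an adjusted p by limma of 0.0529 on a TPM scale, 0.0626 without a variance trend, 0.0757 with a pseudocount of 0.1 FPKM, 0.241 with small RNAs kept and 0.775 with no filter on low values. Glra3 had a log2 change of -0.43 ± 0.12 and an limma adjusted p of 0.287. Slc12a5 (-0.13 ± 0.07, limma adjusted p = 0.640), Glra2 (-0.16 ± 0.13, 0.780), Gphn (-0.08 ± 0.09, 0.860), Glrb (-0.09 ± 0.10, 0.859) and Slc12a2 (0.08 ± 0.12, 0.911) did not pass the test. A gene whose difference changed sign between the ages, such as Glra2, gets 1 common value in this fit.

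Markers of several cell types differed between the libraries compared, and each list below had 0 markers at 0 in all 4 libraries. For comparison, the KO value lay below the control for 47.7% of all genes tested at P7 and for 49.2% at P14. It lay below beyond counting error for 6.10% at P7 and 8.24% at P14, and above beyond it for 7.34% and 7.45%. At P14, when the receptor genes were lower in the KO retina, 10 of 14 bipolar markers were lower (7 beyond counting error) and 4 higher (1 of these), with a summed level of 831 against 855 FPKM. Among them Grik1, a kainate receptor gene of OFF cone bipolar cells singled out after its value was seen, was at 14.6 against 27.8 FPKM. At the same age 13 of 17 measured amacrine markers were lower and 4 higher, beyond counting error 4 and 1 of them. Their summed level was 1057 against 1022 FPKM, and 626 against 667 FPKM without Calb2, the highest of them. Of 6 measured markers of glycinergic amacrine cells, 5 were higher and 1 lower, 0 beyond counting error, with a summed level of 104 against 105 FPKM. Ganglion cell markers were higher in 10 of 13 cases, 9 beyond counting error (1534 against 1301 FPKM), and markers of astrocytes and reactive glia in 7 of 8, 4 beyond it (353 against 219.7 FPKM). At P7, when Glra1 was lower, 13 of 17 amacrine markers were lower (5 beyond counting error, 719 against 760 FPKM), and of the 14 bipolar markers 7 were higher and 7 lower. Also at P7, ganglion cell markers were higher in 12 of 13 cases (5 beyond counting error), cone markers in 8 of 9 (4 beyond it) and horizontal cell markers in 7 of 8 (3 beyond it). Socs3 (reactive glia, P14) and Neurod6 (amacrine cells, P7) reached 1 FPKM only in the library where they stood higher, so their direction followed from the floor. The part of these cell types in the receptor results was not tested.

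Tissue next to the retina and blood also differed between libraries. The shares of all genes beyond counting error were again 7.34% higher and 6.10% lower at P7, and 7.45% and 8.24% at P14. At P7, when Slc12a2 was higher in the KO retina, 9 of 10 measured pigment epithelium markers were higher, 4 beyond counting error (149 against 126 FPKM summed). So were 7 of 9 markers of ciliary body, iris, vitreous and lens, all 7 beyond it (90.3 against 52.3 FPKM). Of these, Fbln1, Cryaa, Crygs and Crybb2 reached 1 FPKM in the KO library only, so their direction followed from the floor. Optc, Mfap4 and Col9a1 reached it in both libraries and were higher. Wfdc2 and Otor also reached it in both and were lower, with overlapping bounds. At P14, when the Slc12a2 bounds overlapped, 10 of 11 pigment epithelium markers were lower in the KO retina, 8 beyond counting error (188 against 253 FPKM). All 7 measured markers of ciliary body, iris, vitreous and lens were lower too (23.1 against 94.0 FPKM), as were all 5 red blood cell genes (356 against 1180.0 FPKM). Among all these, Wfdc2, Mfap4, Fbln1, Cryaa, Tyr and Hba-a2 reached 1 FPKM in the control library only, so their direction followed from the floor. Optc, Otor and Col9a1 reached it in both libraries and were lower beyond counting error. At P7 all 5 red blood cell genes had been higher in the KO retina (339 against 291 FPKM). Only 1 of them was beyond counting error, Hba-a2, which reached 1 FPKM in the KO library only. Of 5 endothelium genes at P14, 3 were higher and 2 lower, 1 each beyond counting error (61.7 against 58.02 FPKM). Their part in the Slc12a2 values was not tested.

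From P7 to P14, Glra1, Glra3, Glrb and Slc12a5 rose and Slc12a2 fell. Glra3 made the largest step of the 7 genes in the control, from 2.03 to 8.21 FPKM, which is 4.05 times the P7 level (log2 change 1.61). In the KO retina it went from 1.60 to 4.95 FPKM, or 3.10 times (1.19). Glrb went from 16.3 to 38.9 FPKM in the control retina (1.20) and from 17.6 to 31.9 FPKM in the KO retina (0.82). Glra1 went from 3.06 to 6.08 FPKM in the control retina (0.80) and from 1.27 to 3.87 FPKM in the KO retina (1.10). Glra1, Glra3 and Glrb thus had bounds apart between the ages in both genotypes, P14 being the higher.

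Slc12a5 went from 57.4 to 102 FPKM in the control retina (log2 change 0.82) and from 50.7 to 96.0 FPKM in the KO retina (0.91). Slc12a2 went from 10.1 to 5.28 FPKM in the control, 52.1% of the P7 level (-0.83), and from 12.9 to 4.64 FPKM in the KO retina, 0.360 times the P7 level (-1.30). Gphn stayed between 18.6 and 21.2 FPKM in the 4 libraries, and its bounds overlapped between the ages in each genotype. Glra2 was at 11.1 and 14.4 FPKM in the control at P7 and P14 (0.35, bounds apart) and at 12.4 and 10.2 FPKM in the KO retina (-0.26, bounds overlapping).

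In the limma fit the change with age had an adjusted p of 9.47e-07 for Glra3 (log2 change 1.40 ± 0.12), 6.75e-07 for Slc12a5 (0.86 ± 0.07), 2.27e-06 for Glrb (1.01 ± 0.10), 8.45e-06 for Slc12a2 (-1.06 ± 0.12) and 1.62e-05 for Glra1 (0.95 ± 0.12). Gphn (0.10 ± 0.09, limma adjusted p = 0.301) and Glra2 (0.05 ± 0.13, limma adjusted p = 0.763) did not pass. The fit called 4 of the 7 genes higher at P14 where it called 30.7% of all genes higher, and 1 lower where it called 40.6% lower. Beyond counting error 5 were higher and 1 lower in the control, against 27.6% and 37.7% of all genes, and 4 were higher and 1 lower in the KO retina, against 29.0% and 39.4%. By the 1.5-fold rule 4 were higher and 1 lower in each genotype, against 16.4% and 20.8% of all genes in the control and 17.5% and 21.6% in the KO retina. The median log2 change was 0.80 over the 7 genes and -0.08 over all genes in the control, and 0.82 and -0.09 in the KO retina. With no filter on low values limma called only Slc12a5 among them (adjusted p = 0.0472), and the adjusted p of Glra1, Glra3, Glrb and Slc12a2 lay between 0.0716 and 0.0989.

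**Figure D3:**
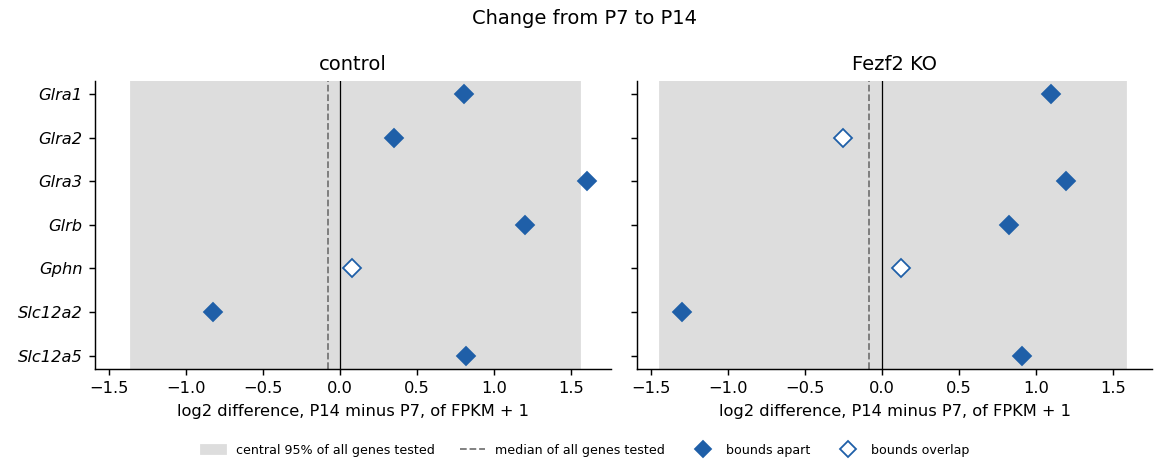
Log2 difference between P14 and P7 in FPKM + 1 (horizontal axis) for each gene in control and KO retina, 1 library per genotype and age. The shaded band holds the central 95% of all genes tested, from -1.36 to 1.56 in the control and from -1.44 to 1.59 in the KO retina; Glra3 in the control (1.61) is the only point outside it.

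The size of the change with age differed most between the genotypes for Glra2, with a log2 change 0.60 lower in the KO than in the control retina. Differences of the other genes were -0.47 for Slc12a2, -0.41 for Glra3, -0.38 for Glrb, 0.30 for Glra1, 0.09 for Slc12a5 and 0.05 for Gphn. The central 95% of 13246 genes ran from -0.47 to 0.46. With 1 library per group these differences have no test.

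The makeup of the alpha subunit mRNA shifted with age. Glra2 accounted for 68.6% of the summed FPKM of Glra1, Glra2 and Glra3 in the control P7 library and 81.1% in the KO P7 library, and for 50.2% and 53.6% at P14. Glra3 went the other way, from 12.5% to 28.6% in the control and from 10.5% to 26.0% in the KO retina. The share of Glra1 was 18.9% in the control and 8.37% in the KO retina at P7, and 21.2% and 20.4% at P14. The genotypes differed in the makeup at P7 and in the summed level at P14. Glra4, a further alpha subunit gene, was at 0.197 FPKM in the control retina and 0.137 FPKM in the KO retina at P7, and at 2.50 and 2.51 FPKM at P14. It was over the floor of 1 FPKM at P14 only and entered the fit through those libraries, so no test of its age difference is given, and its bounds overlapped between the genotypes at both ages.

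The ratio of Slc12a5 to Slc12a2 FPKM, the exporter over the importer, was 5.66 in the control P7 library and 3.94 in the KO P7 library. Taking the bounds of both genes at their extremes, it ran from 5.10 to 6.11 and from 3.54 to 4.29, so the ranges were apart. At P14 the ratio was 19.3 in the control and 20.7 in the KO retina, with ranges of 16.9 to 21.2 and 18.2 to 22.6 that overlapped. Both P14 ratios were above both P7 ratios. This ratio is free of the scaling of the library.

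**Figure D4:**
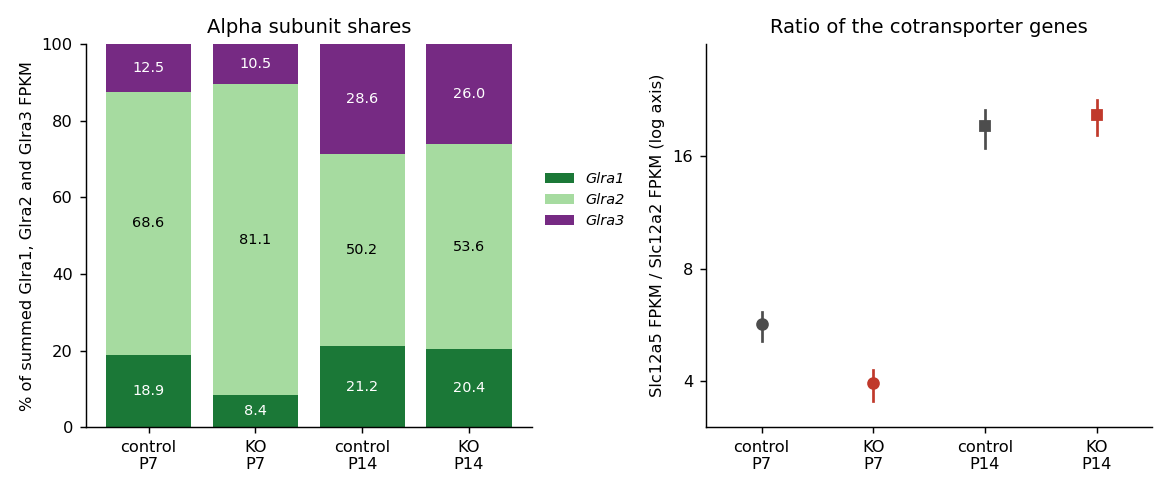
Left, share of Glra1, Glra2 and Glra3 in their summed FPKM in each library (bars, in percent); right, ratio of Slc12a5 to Slc12a2 FPKM in each library on a log axis, with lines spanning the extremes given by the deposited bounds. Glra2 holds 68.6% and 81.1% at P7 against 50.2% and 53.6% at P14, and the cotransporter ratio goes from 5.66 and 3.94 at P7 to 19.3 and 20.7 at P14.

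To show the sequence in front of genes that rose with age beside that of Glra2, which did not pass the test, the bases before the RefSeq transcription starts are given in the GRCm38.p6 build. RefSeq promoters were matched for 5 of the 7 genes, and 4 genes are shown, Slc12a5 with both of its starts. Each run is 5′ to 3′ on the strand of the gene. It ends at the base just before the start for Glrb, Glra3 and Glra2, 45 bases before the upstream Slc12a5 start and 6 before the downstream one, and the bases nearer to those starts were not searched. Capitals mark any of 4 motifs searched on both strands. These are the E-box CACGTG, which reads alike on both strands, and the GC box GGGCGG with its complement CCGCCC. The others are the box CCAAT with its complement ATTGG, and the TATA box TATAAA with its complement TTTATA.
Slc12a5, upstream start, chr2:164960596-164960801, plus strand: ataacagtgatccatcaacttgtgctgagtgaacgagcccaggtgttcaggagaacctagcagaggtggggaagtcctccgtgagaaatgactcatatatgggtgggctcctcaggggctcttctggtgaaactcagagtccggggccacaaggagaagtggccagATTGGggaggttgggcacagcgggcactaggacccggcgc
Slc12a5, downstream start, chr2:164967738-164967982, plus strand: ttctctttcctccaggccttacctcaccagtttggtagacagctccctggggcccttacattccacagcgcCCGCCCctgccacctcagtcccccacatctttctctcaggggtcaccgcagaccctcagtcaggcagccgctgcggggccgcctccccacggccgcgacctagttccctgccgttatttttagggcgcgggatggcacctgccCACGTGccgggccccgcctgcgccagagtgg
Glrb, chr3:80913661-80913910, minus strand: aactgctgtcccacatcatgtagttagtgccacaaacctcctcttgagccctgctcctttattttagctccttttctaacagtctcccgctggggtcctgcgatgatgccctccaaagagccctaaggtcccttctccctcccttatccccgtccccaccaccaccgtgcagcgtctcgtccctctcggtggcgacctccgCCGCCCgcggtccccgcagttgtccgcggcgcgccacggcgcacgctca
Glra3, chr8:55940168-55940417, plus strand: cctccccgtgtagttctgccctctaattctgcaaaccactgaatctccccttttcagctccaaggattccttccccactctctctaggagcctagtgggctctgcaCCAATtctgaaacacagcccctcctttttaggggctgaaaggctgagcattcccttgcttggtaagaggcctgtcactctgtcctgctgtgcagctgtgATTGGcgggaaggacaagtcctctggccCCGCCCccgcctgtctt
Glra2, chrX:165327394-165327643, minus strand: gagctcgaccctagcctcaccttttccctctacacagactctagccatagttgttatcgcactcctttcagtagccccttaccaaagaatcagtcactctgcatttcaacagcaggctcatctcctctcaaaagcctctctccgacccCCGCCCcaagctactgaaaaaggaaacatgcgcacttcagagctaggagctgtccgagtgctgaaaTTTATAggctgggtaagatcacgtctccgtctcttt

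The E-box was found only in the window of the downstream Slc12a5 start among these 5 windows, and 5.85% of all 32851 RefSeq windows of that length hold one. A GC box was found once each before the downstream Slc12a5 start, Glrb, Glra3 and Glra2, against 32.7% of all windows of 250 bases. The CCAAT box was found 2 times before Glra3 and 1 time before the upstream Slc12a5 start, against 33.8% of windows of 250 bases. The TATA box was found in the Glra2 window and in 0 of the other printed windows. In the Glra2 window it appears as TTTATA, so TATAAA itself reads on the strand opposite to the gene. Of the other windows, that of the upstream Slc12a5 start stops short of the bases where a TATA box usually lies. A TATA box on either strand is held by 12.4% of all windows of 250 bases. No motif overlapped another. The windows were 50.4% (Glra2) to 66.5% (downstream Slc12a5 start) G and C, against a median of 52.4% of all windows of 250 bases. A match of letters does not show that a factor binds there.

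Limma measured 12 genes that supply and clear glycine. At P14 it called 5 higher and 4 lower, beside 30.7% and 40.6% of all genes. The 5 include Slc6a5, which entered the fit through its P14 libraries only. For genotype 0 passed, with 3 at an unadjusted limma p under 0.05 (Slc6a9, Amt and Slc38a5, all lower), beside 1182 of all 12934 genes. Gldc, an enzyme of glycine breakdown, fell from 38.8 to 9.10 FPKM in the control retina and from 37.9 to 8.17 FPKM in the KO retina (log2 change -2.03, limma adjusted p = 2.66e-09). The neuronal glycine transporter gene Slc6a5 was at 0.749 and 0.513 FPKM in control and KO retina at P7 and at 2.61 and 2.73 FPKM at P14, and since it passed the floor of 1 FPKM at P14 only, its test is not given. The amino acid transporter gene Slc38a2 fell (-1.01, limma adjusted p = 4.68e-07). Slc6a9, the glycine transporter gene of glycinergic amacrine cells, was at 38.9 FPKM in the control retina and 29.2 FPKM in the KO retina at P7, apart beyond counting error (log2 difference -0.40), and at 69.6 and 65.1 FPKM at P14 with overlapping bounds. Amt, which encodes another protein of the glycine cleavage system, was at 9.36 and 6.13 FPKM at P7, also beyond counting error (-0.54), and at 12.1 and 9.86 FPKM at P14. Beyond counting error 3 of 12 measured genes of this list were lower in the KO retina at P7, beside 6.10% of all genes, and 1 of 12 at P14, beside 8.24%, 0 were higher at either age, and the medians were -0.06 and -0.08.

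The partners of gephyrin and other genes of the inhibitory postsynapse had 5 of 17 members rise and 6 fall with age, beside 30.7% and 40.6% of all genes. Lhfpl4, which encodes a partner of GABA receptors at inhibitory synapses, fell (log2 change -0.80, limma adjusted p = 3.61e-06), as did the kinase gene Gsk3b (-0.71, limma adjusted p = 1.35e-05). By limma 0 of the 17 passed for genotype, and 1 was at an unadjusted p under 0.05 (Slitrk3, lower), beside 1182 of all 12934 genes. Beyond counting error 2 of the 17 were higher and 0 lower in the KO retina at P7 (7.34% and 6.10% of all genes), and 4 higher and 2 lower at P14 (7.45% and 8.24%), with medians of -0.05 and 0.05.

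Of 11 measured regulators of cation-chloride cotransport, 3 rose and 5 fell with age by limma (30.7% and 40.6% of all genes). For genotype 0 passed by limma, also 0 at an unadjusted p under 0.05, beside 1182 of all 12934 genes. The kinase gene Wnk2 fell (log2 change -1.02, limma adjusted p = 9.01e-07) and Klhl3, which encodes an adaptor for the breakdown of WNK kinases, rose (1.10, limma adjusted p = 2.47e-06). Wnk2 was at 24.6 against 22.4 FPKM in the KO and the control library at P7 and at 12.1 against 10.1 FPKM at P14, higher beyond counting error at both ages. Neto2, which encodes a protein that binds KCC2 and kainate receptors, was at 8.26 against 10.2 FPKM at P14 (-0.27), lower beyond counting error. Beyond counting error 3 of the 11 were higher and 0 lower at P7 (7.34% and 6.10% of all genes), and 2 higher and 2 lower at P14 (7.45% and 8.24%), and the medians were 0.01 and -0.05.

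Other cotransporters of the family were lower than Slc12a5. Slc12a9 fell with age (log2 change -0.92, limma adjusted p = 1.19e-05), as did Slc12a7, the gene of KCC4 (-0.35, limma adjusted p = 0.0149), and Slc12a4, the gene of KCC1, did not pass (0.10, limma adjusted p = 0.418). Slc12a1, Slc12a3 and Slc12a8 were under 1 FPKM in every library.

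Among 16 measured genes of other chloride and bicarbonate transport, 8 rose and 6 fell with age by limma (30.7% and 40.6% of all genes). The 8 include Car7, which was over 1 FPKM at P14 only. For genotype 0 passed by limma, with 2 at an unadjusted p under 0.05 (Clcn2 and Slc4a7, both lower), beside 1182 of all 12934 genes. Car14, a membrane carbonic anhydrase gene, rose (log2 change 1.21, limma adjusted p = 6.05e-08), as did Clcn7, a lysosomal chloride transporter gene (0.93, limma adjusted p = 6.95e-06). Clcn2, a chloride channel gene, was at 3.89 against 5.05 FPKM in the KO and the control library at P7 and at 2.42 against 3.46 FPKM at P14 (-0.31 and -0.38), lower beyond counting error at both ages. The bicarbonate cotransporter gene Slc4a7 was also lower beyond it at both ages, at 26.0 and 16.1 FPKM in the KO retina where the control had 28.2 and 20.6 FPKM. In this list 3 of 15 measured genes were lower and 0 higher beyond counting error at P7 (6.10% and 7.34% of all genes), and 4 of 16 lower and 2 higher at P14 (8.24% and 7.45%), and the medians were -0.06 at both ages.

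**Figure D5:**
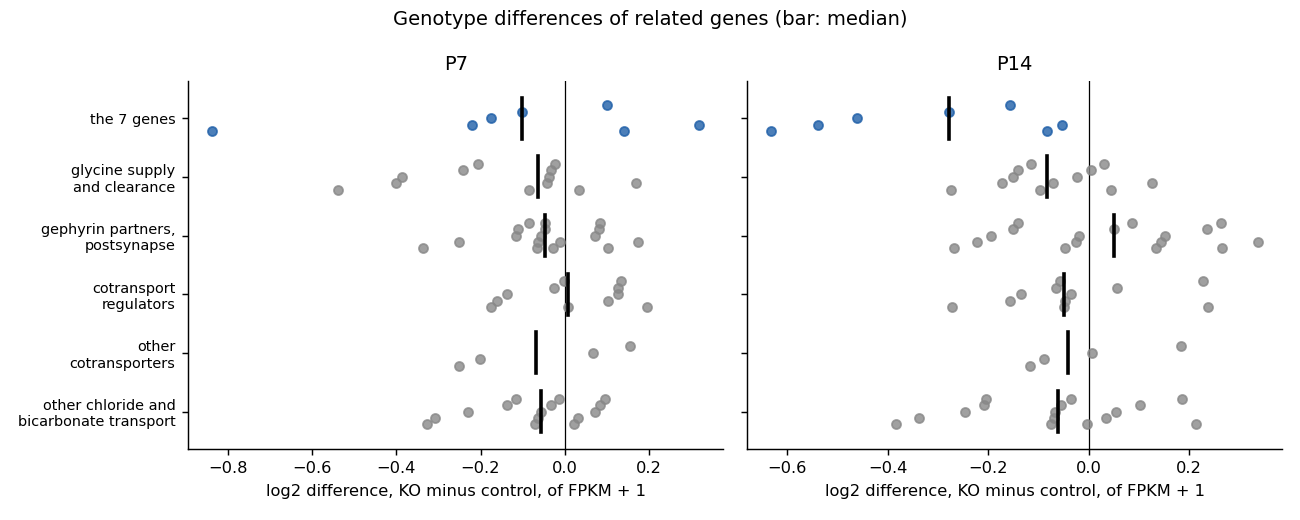
Log2 difference between KO and control in FPKM + 1 (horizontal axis) at P7 and P14 for the 7 genes (blue) and for measured genes of 5 related lists (grey), with each list's median as a black bar. The 7 genes have medians of -0.10 and -0.28, and the 5 lists have medians from -0.07 to 0.01 at P7 and from -0.08 to 0.05 at P14.

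The genes whose centred profiles over the 4 libraries lay closest to those of 4 of the genes were found among 12602 others by Euclidean distance on the log2 scale. For Slc12a5 they were Scly (distance 0.01), Cap2 (0.02) and Ift172 (0.03), and for Slc12a2 they were Nid2 (0.05), Trim13 (0.07) and Fblim1 (0.08). For Glra2 they were A2m (0.04), Gabrb1 (0.07) and Ccdc90b (0.09). The profile of Glra1 had no such close match, the nearest being Mitd1 (0.235), Tac1 (0.28) and Zranb2 (0.28). Tac1 was at 10.4 and 7.33 FPKM in the control retina and the KO retina at P7 and at 21.6 and 14.1 FPKM at P14. A likeness over 4 libraries rests on few points and is a description only.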

How the data were processed

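Total RNA of whole retina was reverse-transcribed with random primers and read as 36-base single ends, per the labels' protocols, which name no strand marking. The authors deposited FPKM values with bounds. The submitters' processing notes name mm9 as the build and list CASAVA 1.8.2, Cufflinks 2.1.1 and TopHat2 2.0.8b as tools. Which annotation and options they used is not given in the sources used here. No counts are in the files used, so no count test was run and total depth is unknown.

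The 7 loci overlapped 0 other loci of the tables, carry no failed value and lie, in mm9 and counted from 1, at chromosome 11 from 55328315 to 55421292 (Glra1), X from 161566949 to 161764913 (Glra2), 8 from 58419622 to 58604149 (Glra3), 3 from 80647526 to 80717546 (Glrb), 12 from 79327642 to 79785756 (Gphn), 18 from 58038332 to 58106475 (Slc12a2) and 2 from 164793488 to 164825231 (Slc12a5).

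Values at several loci of a symbol were summed (251 symbols). The 16 symbols with a failed value and 740 small RNA genes or loci under 300 bases were left out of all counts over genes. Comparisons between libraries used log2(FPKM + 1) of genes reaching 1 FPKM in one of them. The additive fit used limma 3.58.1 with a variance trend on genes reaching 1 FPKM in 2 or more libraries, with Benjamini-Hochberg adjustment and a threshold of 0.05, and leaned on 10.9 prior degrees of freedom. The fit was tested on 20 simulated sets of 12934 genes with independent noise. It recovered a median of 98 of 100 genes changed 1.5-fold and 100 of 100 changed 2-fold for either term. The median share of false calls was 11.0% for genotype and 11.6% for age, above the nominal level. Each set had 200 changed genes and noise of the size the fit itself estimated, so these shares do not measure error in the real libraries. The labels state no separate animals, and there are no replicate libraries. The error behind each p-value is how far the genotype difference varied between the ages, pooled with the variance of other genes. These p-values do not measure the spread between mice.

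The members, gene lists and tests were chosen with earlier results of these data known. From each related list up to 3 genes with the largest mean change with age and 3 with the largest mean genotype difference could be named, and 3 genes of like profile for each of Glra1, Glra2, Slc12a5 and Slc12a2. Genes of lists not found under their symbol or a RefSeq synonym are not reported. Some genes that the naming rule picked are not reported here. Other settings tried were a pseudocount of 0.1 FPKM, a TPM scale, floors of 0 and 5 FPKM, centring on the median of all genes, keeping small RNAs and no variance trend. The amacrine sum without Calb2 and the split of red blood cell and endothelium genes were chosen after seeing the data.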

Additional observations from a re-analysis of the deposited data

Results flagged for a closer look

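Some genes went in opposite directions under the same comparison, at least one of the differences being beyond counting error. With 1 library per group the difference between them was not tested. For KO against control, Glra2 had a log2 difference of 0.14 at P7 and -0.46 at P14, a shift of -0.60. Glrb had 0.10 at P7 and -0.28 at P14, a shift of -0.38. Slc12a2 had 0.32 at P7 and -0.16 at P14, a shift of -0.47. For P14 against P7, Glra2 had a change of 0.35 in the control and -0.26 in the KO retina, which is the same shift of -0.60 seen from the other side. Slc12a2 was beyond counting error at P7 only, and Glra2 and Glrb at P14 only.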

How the results depend on the processing

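The number of the 7 genes past 1.5-fold went from 1 to 0 at P7 with a floor of 5 FPKM, from 1 to 2 at P14 both on a TPM scale and with a pseudocount of 0.1 FPKM, and from 5 to 3 for the change with age in the KO retina with a floor of 5 FPKM. The number called by limma for genotype went from 1 to 0 under each of the 6 alternatives, namely a pseudocount of 0.1 FPKM, a TPM scale, a floor of 5 FPKM, no filter, small RNAs kept and no variance trend. The floor of 5 FPKM removes Glra1 from the test. The number called for age went from 5 to 3 with a floor of 5 FPKM, which removes Glra1 and Glra3, and to 1 with no filter. For the other changes in these numbers the cause was not tested. The limma change of Glra2 with age, not called, reversed to -0.029 on a TPM scale. Of 164 alternative values for single genes 146 stayed the same, by size within counting error for library differences and by call for limma. Of the rest, 8 library differences moved by more than counting error, 9 limma values lost their call and 1 reversed. A TPM scale moved the median of all genes by less than 0.1 in each comparison. No paired analysis was possible because each group has 1 library. No library could be left out for the same reason, so differences between mice, dissections or library preparations cannot be told apart from genotype at 1 age. Glra1 and Glra3 at P7 have the widest bounds relative to their value among the 7 genes.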

Other observations

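The beta subunit gene was at 1.01 and 1.16 times the summed FPKM of the 3 alpha genes in the control and the KO library at P7, and at 1.36 and 1.68 times at P14. Gphn was at 1.23 and 1.06 times the FPKM of Glrb at P7 and at 0.545 and 0.640 times at P14.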
